A study of Homo sapiens with 6 samples.

Results

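The chaperones, folding enzymes, degradation factors and stress sensors of the endoplasmic reticulum (ER) were examined in SW480 cells, a line from a human colorectal adenocarcinoma, with and without a knockdown of heparanase (HPSE). The list held 40 genes, named for their function, and 31 of them were matched by Ensembl identifier to a row of the normalized counts. The other 9, DNAJB11, DNAJC10, SYVN1, DERL2, SEC61B, SSR1, SEC31A, EIF2AK3 and ATF6, were not analysed here. The 31 stood among 59192 features in all, and all 31 were among the 21703 features that were tested, those averaging 10 normalized counts or more.

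SW480-NC carried Cas9 with a control guide RNA, and SW480-45, labelled HPSE-knockdown, was taken as the line named SW480-KD1 in the paper, with Cas9 and a guide against HPSE. Cas9 and the guides were delivered by lentivirus, and puromycin selected the Cas9-expressing cells before the guides were added, so both groups share Cas9 and this selection. Each group came from 1 stably infected line, sequenced from 3 independent experiments. The effect of the HPSE guide and any other difference between the lines therefore cannot be told apart.

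The ER folds secreted and membrane proteins with the help of Hsp70 and Hsp90 chaperones, lectin chaperones that hold sugar-bearing proteins, and enzymes that form disulfide bonds. Proteins that fail to fold are drawn back into the cytosol and degraded. When unfolded proteins build up, the sensors IRE1 (gene ERN1), PERK (gene EIF2AK3) and ATF6 start the unfolded protein response, in which XBP1 and ATF6 raise chaperone and degradation genes and PERK leads to the translation of ATF4. ATF4 is also induced by lack of amino acids through another kinase, without unfolded protein in the ER. The chaperone genes and the ATF4 genes were therefore set side by side here. Whether ER stress, amino acid stress or neither was present in these cells was not tested.

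Depth lay between 33221323 and 39802365 reads per library. The knocked-down gene itself, HPSE, stood at 136, 172 and 146 normalized counts in SW480-45 against 270, 295 and 246 in SW480-NC, a log2 difference of −0.83 ± 0.14 (standard error, SE), and missed the threshold with a limma adjusted p = 0.0547, adjusted over all features tested. These counts measure RNA. The paper assessed the knockdown at the protein level by western blot, and reports that its guides lowered HPSE efficiently. Of the epithelial markers, 5 of 8 were matched. EPCAM, KRT8, KRT19 and VIL1 were abundant in every library, with EPCAM at 16775 to 18783 normalized counts, while CDX2 was at 19.0 to 40.3. Of the markers of fibroblasts, endothelium and blood, 6 of 9 were matched, and COL1A2, CDH5 and HBB were at 2.90 normalized counts or less in each library. COL1A1 was at 198 to 359, PECAM1 at 9.03 to 30.6 and CD14 at 46.7 normalized counts or less. EPCAM and KRT8 were lower and VIL1 was higher in every SW480-45 library than in any SW480-NC library (log2 fold changes −0.09, −0.21 and 0.20). COL1A1 averaged 141% of its control mean, with a log2 fold change of 0.48 ± 0.20 (SE, unadjusted p = 0.0458, limma adjusted p = 0.297) and overlapping libraries. The part of these markers in the results below was not tested. In bulk RNA, fewer cells expressing a gene and less RNA per cell cannot be told apart.

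The promoters of ER chaperone genes are known for the ER stress response element (ERSE), which ATF6 and the factor NF-Y bind. It reads CCAAT, then 9 bases of any kind, then CCACG. The shorter ERSE-II reads ATTGG, 1 base of any kind, then CCACG. ATF4 binds elements such as the CARE letters TGATGNAA, known from the promoter of the asparagine synthetase gene ASNS. The RefSeq promoter windows (GRCh38.p14) below show the 250 bases before the annotated start of the gene most clearly lower in SW480-45 (HSPA5), a gene with the same element and a smaller difference (HSP90B1), one with the element and nearly equal levels (CALR), one with both ERSE-II and CARE (HERPUD1), and ASNS, which was higher. Each is printed 5′ to 3′ along the gene, with capitals for the matched letters on either strand.
HSPA5: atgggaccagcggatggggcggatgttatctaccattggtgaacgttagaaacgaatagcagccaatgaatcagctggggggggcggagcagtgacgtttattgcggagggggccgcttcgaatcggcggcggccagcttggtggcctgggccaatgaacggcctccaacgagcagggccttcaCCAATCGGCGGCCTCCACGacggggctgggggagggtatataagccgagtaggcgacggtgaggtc
HSP90B1: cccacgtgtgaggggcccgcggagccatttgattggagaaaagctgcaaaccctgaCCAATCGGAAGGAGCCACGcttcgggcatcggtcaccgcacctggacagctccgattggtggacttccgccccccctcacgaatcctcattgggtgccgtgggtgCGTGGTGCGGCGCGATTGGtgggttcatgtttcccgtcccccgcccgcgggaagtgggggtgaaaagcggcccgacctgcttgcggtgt
CALR: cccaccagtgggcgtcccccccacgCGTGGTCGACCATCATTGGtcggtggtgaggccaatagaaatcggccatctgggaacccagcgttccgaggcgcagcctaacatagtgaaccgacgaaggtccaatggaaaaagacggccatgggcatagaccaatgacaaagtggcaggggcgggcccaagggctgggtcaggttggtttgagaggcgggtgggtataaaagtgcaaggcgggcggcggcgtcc
HERPUD1: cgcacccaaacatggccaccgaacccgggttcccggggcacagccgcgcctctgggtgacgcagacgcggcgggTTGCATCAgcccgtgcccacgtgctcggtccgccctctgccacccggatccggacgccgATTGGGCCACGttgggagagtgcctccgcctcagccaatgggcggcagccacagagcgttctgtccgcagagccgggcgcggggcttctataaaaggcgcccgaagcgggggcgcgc
ASNS: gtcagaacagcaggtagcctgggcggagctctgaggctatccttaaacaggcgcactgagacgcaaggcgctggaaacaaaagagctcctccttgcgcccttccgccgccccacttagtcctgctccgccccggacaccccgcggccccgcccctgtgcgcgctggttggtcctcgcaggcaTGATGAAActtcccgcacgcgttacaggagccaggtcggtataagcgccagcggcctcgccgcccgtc
The windows lie at chr9:125241344-125241593 on the minus strand for HSPA5, chr12:103930160-103930409 on the plus strand for HSP90B1, chr19:12938359-12938608 on the plus strand for CALR, chr16:56931892-56932141 on the plus strand for HERPUD1 and chr7:97872409-97872658 on the minus strand for ASNS. HSPA5 held 1 exact ERSE match, from 66 to 48 bases before the start. HSP90B1 held 2, the nearer from 89 to 71 bases before the start on the opposite strand. The CALR match lay farther out, from 225 to 207 bases before the start. HERPUD1 had the ERSE-II letters from 117 to 107 bases before the start and the CARE letters from 176 to 169. The table holds another start for ASNS, whose window had no match.

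HSPA5 (BiP), the main Hsp70 chaperone of the ER lumen, was the clearest difference among the 31 genes. Its gene lies at chr9:125234853-125241330 on the minus strand (GRCh38). It had 44266, 43986 and 44766 normalized counts in SW480-45 and 56058, 53966 and 57895 in SW480-NC. Every SW480-45 library lay below every SW480-NC library, and the SW480-45 values were close to each other. HSPA5 fell by 0.34 on the log2 scale ± 0.05 (SE, limma adjusted p = 0.0343), to 79.2% of the control mean. It was the only one of the 31 genes past the adjusted threshold of 0.05, and 0 were higher past it in limma. Of all features tested, 0.802% passed this threshold, 0.47% lower and 0.332% higher in SW480-45. The call was close to the threshold. The adjusted p from limma was 0.0496 without SW480-NC replicate 3 and 0.0827 to 0.140 without any other single library, although the log2 fold change itself lay from −0.36 to −0.31 in these fits. The call was also lost in limma without an intensity trend (adjusted p = 0.196) and without a filter on low values (adjusted p = 0.0546). On the recovered reads the adjusted p was 0.0470 in edgeR and 0.00713 in DESeq2. A two-sided exact permutation test of a single gene cannot go below p = 0.1 with 3 libraries against 3.

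At an unadjusted p under 0.05, 8 of the 31 genes were lower in SW480-45 (25.8%) and 1 was higher (3.23%), where 8.15% and 8.1% of all features tested were lower and higher. These genes are abundant, and abundant features were more often lower. Among the 9519 features averaging 400 normalized counts or more, 1.31% passed the adjusted threshold, 0.861% in the lower direction, and at the unadjusted one 13% were lower and 8.22% higher, and 7 of the 29 members above that level were lower (24.1%). The median log2 fold change over the 31 genes was −0.10, with 24 below 0 and 7 above, beside a median of −0.0048 over all features tested and −0.03 over the abundant ones. The libraries of the lines did not overlap for 11 of the 31 genes (35.5%), each lower in SW480-45, where this held for 12% of all features and 17.7% of the abundant ones. Leaving out SW480-NC replicate 2 brought the 9 genes at an unadjusted p under 0.05 down to 5, all lower. Together the 31 genes took 0.769% to 0.833% of the reads in SW480-45 libraries and 0.879% to 0.904% in SW480-NC libraries, HSPA5 alone taking 0.122% to 0.128% and 0.151% to 0.157%. The sum is weighted to the most abundant genes, so it does not show a joint fall of the 31. CANX, one of the abundant genes, had 20348 reads in SW480-45 replicate 1, the library with 0.769%, against 45028 and 43188 in replicates 2 and 3.

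**Figure D1:**
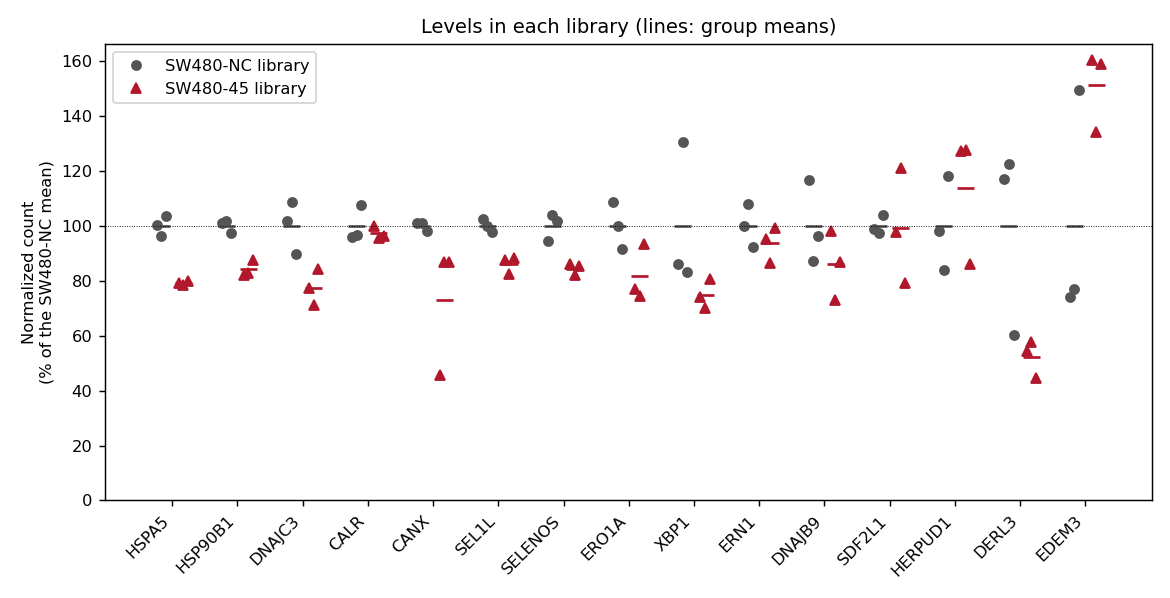
Normalized counts of 15 of the genes in each library, as a percent of the SW480-NC mean of that gene (grey circles, SW480-NC; red triangles, SW480-45; lines, group means; 3 libraries per line). The HSPA5, HSP90B1, DNAJC3, SEL1L and SELENOS libraries of SW480-45 lie below all SW480-NC libraries, CALR overlaps, and CANX, XBP1, DERL3 and EDEM3 each have 1 library or more apart from the rest of its line.

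Of the 7 matched Hsp70 and Hsp90 chaperones and their helpers, 6 were below 0 and 1 was above, with a median log2 fold change of −0.22. HSP90B1 (GRP94), the Hsp90 of the ER, had 36839, 37292 and 39427 normalized counts in SW480-45 and 45434, 45676 and 43821 in SW480-NC. Its libraries did not overlap, and its log2 fold change was −0.25 ± 0.05 (SE, unadjusted p = 0.00112, limma adjusted p = 0.0814). Of its exonic bases, 357 are shared with other annotated genes. Some other members share more, among them PDIA3 (1410 bases) and PDIA6 (1033), while HSPA5 and others share 0. DNAJC3 (p58IPK), a J-domain helper of BiP, had 3351, 3080 and 3649 normalized counts in SW480-45 and 4410, 4709 and 3895 in SW480-NC. The DNAJC3 libraries did not overlap either, with a log2 fold change of −0.37 ± 0.10 (SE, limma adjusted p = 0.140). MANF, a secreted stress-induced protein, was also separated, at 92.5% of the control mean (limma adjusted p = 0.496).

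The remaining chaperone genes overlapped between the lines. DNAJB9 (ERdj4), a J-domain protein that is a classical XBP1 target, had 517, 385 and 456 normalized counts in SW480-45 and 614, 459 and 507 in SW480-NC (log2 fold change −0.22 ± 0.15 SE, limma adjusted p = 0.526). Leaving out SW480-NC replicate 1 brought DNAJB9 to −0.10, and leaving out SW480-45 replicate 2 to −0.11. SDF2L1, which binds BiP complexes and is strongly induced by ER stress, had 518, 641 and 419 in SW480-45 and 524, 517 and 550 in SW480-NC (log2 fold change −0.03, limma adjusted p = 0.940). The sign for SDF2L1 depended on 1 library, with a log2 fold change of 0.12 without SW480-45 replicate 3. HYOU1 (GRP170), a nucleotide exchange factor of BiP, had a log2 fold change of 0.07 (limma adjusted p = 0.691). None of these 3 stress-induced genes was separated between the lines in the way HSPA5 was.

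The lectin chaperones differed from each other. CALR (calreticulin), which holds glycoproteins in the lumen, had 27890, 26665 and 26792 normalized counts in SW480-45 and 26680, 26951 and 29992 in SW480-NC, with a log2 fold change of −0.04 ± 0.06 (SE, limma adjusted p = 0.799). CANX (calnexin), its membrane-bound counterpart, had 21455, 40665 and 40687 in SW480-45 and 47458, 47308 and 46044 in SW480-NC. All 3 SW480-45 libraries were lower, but replicate 1 stood far below the other two. The log2 fold change of CANX was −0.51 ± 0.23 (SE, limma adjusted p = 0.320) and was −0.21 without that library (limma adjusted p = 0.277). CANX was singled out after its values were seen. UGGT1, which marks misfolded glycoproteins for another round of binding, had a log2 fold change of −0.07 (limma adjusted p = 0.603).

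Among the 8 matched enzymes of disulfide bond formation, 7 were below 0 with a median log2 fold change of −0.08. The protein disulfide isomerases P4HB, PDIA4 and PDIA6 had log2 fold changes of −0.04, −0.04 and −0.06, and PDIA3 had −0.10 (limma adjusted p = 0.407). ERO1A, the oxidase that recharges these isomerases, had 3218, 3110 and 3916 normalized counts in SW480-45 and 4545, 4184 and 3838 in SW480-NC. Replicate 3 of SW480-45 lay above the lowest control library, and the log2 fold change was −0.30 ± 0.11 (SE, limma adjusted p = 0.243). ERO1B, its paralog, rested on 6 to 14 reads in SW480-45 and 8 to 15 in SW480-NC, so that a difference was not detectable at this depth. CRELD2, a secreted stress-induced protein, had a log2 fold change of −0.22 (limma adjusted p = 0.330), and its relative CRELD1 had 0.13 (limma adjusted p = 0.638). PDIA3 has a near-identical processed copy, PDIA3P1, which had 523 ± 3.87 (SD, n = 3) normalized counts in SW480-45 and 579 ± 27.3 (SD, n = 3) in SW480-NC, so a small part of the PDIA3 reads may have been counted there.

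The 9 matched genes of ER-associated degradation did not share a direction, with 4 below 0 and 5 above. The libraries did not overlap for 4 of the 9 (44.4%), each lower in SW480-45, beside 12% of all features and 17.7% of the abundant ones. SEL1L, the adaptor of the HRD1 ubiquitin ligase, had 3702, 3481 and 3735 normalized counts in SW480-45 and 4328, 4221 and 4132 in SW480-NC, without overlap (log2 fold change −0.22 ± 0.07 SE, limma adjusted p = 0.179). SELENOS, a selenoprotein of the same complex, had 1206, 1151 and 1197 in SW480-45 and 1324, 1460 and 1427 in SW480-NC, again without overlap (log2 fold change −0.24 ± 0.08 SE, limma adjusted p = 0.207). HERPUD1, a stress-induced scaffold of this machinery, had 1797, 1800 and 1217 in SW480-45 and 1387, 1183 and 1668 in SW480-NC. Its lines overlapped, and the log2 fold change was 0.17 ± 0.19 (SE, limma adjusted p = 0.676). With single libraries left out it ran from 0.05 without SW480-NC replicate 2 to 0.36 without SW480-45 replicate 3.

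DERL3 and EDEM3 had the largest fold changes of the list, each with 1 control library unlike the others. DERL3, a derlin of the channel through which misfolded proteins leave the ER, had 62.2, 65.9 and 50.9 normalized counts in SW480-45 and 134, 140.0 and 68.9 in SW480-NC, with a log2 fold change of −0.87 ± 0.29 (SE, limma adjusted p = 0.217). The third control library lay next to the SW480-45 libraries. Of the 3796 exonic bases of DERL3, 2923 are also exonic in SMARCB1 on the opposite strand, and whether strand was used in counting is not given in the sources used here, so reads of the pair may not be told apart. EDEM3, which trims mannose from misfolded glycoproteins, had 2164, 1808 and 2143 in SW480-45 and 998, 1036 and 2015 in SW480-NC. The third control library was again apart from the other two, here at the level of SW480-45. EDEM3 had a log2 fold change of 0.67 ± 0.26 (SE, limma adjusted p = 0.261), and without SW480-NC replicate 3 it was 1.00 with an adjusted p of 0.0293 from limma. DERL1, the more abundant derlin, EDEM1 and EDEM2, relatives of EDEM3, and OS9, a lectin that hands glycoproteins to the ligase, had log2 fold changes between −0.12 and 0.15. Of these, DERL1 was lower in SW480-45 without overlap (log2 fold change −0.12, limma adjusted p = 0.393), and the others overlapped.

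**Figure D2:**
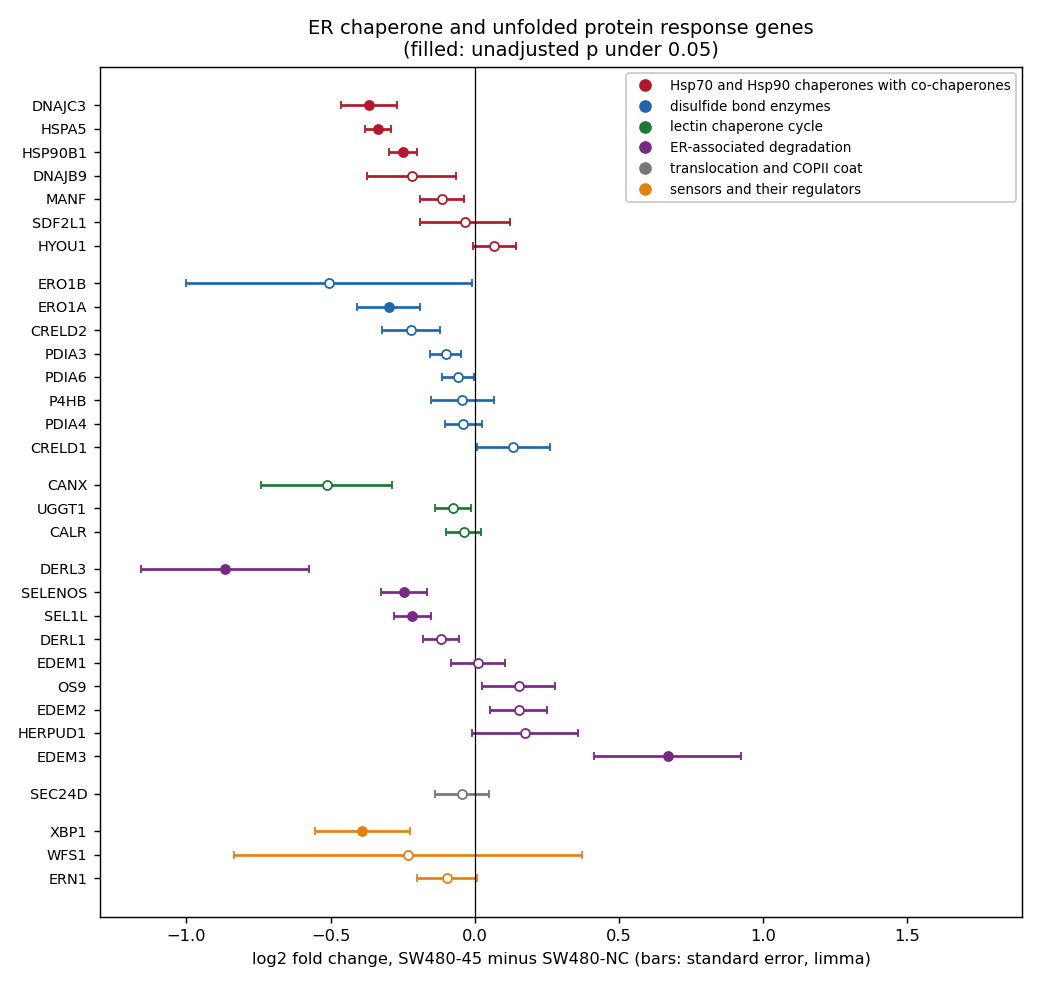
Log2 fold change of each of the 31 genes, SW480-45 minus SW480-NC, from limma (points, 3 libraries against 3; bars, standard error; colour, role; filled points, unadjusted p under 0.05). Of the filled points, 8 lie below 0 and 1, EDEM3, above, and HSPA5 is the one past the adjusted threshold.

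Of the sensors, ERN1 could be measured. ERN1 had 686, 622 and 715 normalized counts in SW480-45 and 720, 779 and 665 in SW480-NC, with overlapping libraries (log2 fold change −0.10 ± 0.10 SE, limma adjusted p = 0.686). Leaving out either replicate 2 brought ERN1 to −0.04, and leaving out replicate 3 of SW480-NC to −0.15. XBP1, whose messenger RNA IRE1 cuts to make the active factor, had 6890, 6524 and 7495 in SW480-45 and 8026, 12169 and 7755 in SW480-NC. The lines did not overlap, but replicate 2 of SW480-NC stood well above the rest. The log2 fold change of XBP1 was −0.39 ± 0.17 (SE, limma adjusted p = 0.303) and −0.18 without that library (limma adjusted p = 0.454). Gene counts do not separate spliced from unspliced XBP1, so IRE1 activity was not measured. WFS1 (wolframin), an ER membrane protein induced in the response, varied within each line, with 521, 1733 and 381 in SW480-45 and 933, 1375 and 434 in SW480-NC. The log2 fold change of WFS1 was −0.23 ± 0.60 (SE, limma adjusted p = 0.883). SEC24D, a cargo-binding subunit of the COPII coat and the one matched gene of translocation and export, had a log2 fold change of −0.04 (limma adjusted p = 0.854).

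Levels between the 31 matched genes were compared per kilobase of annotated exon, counting the exons of all annotated transcripts whether used here or not. In SW480-NC, HSPA5 was the most abundant at 14323 normalized counts per kilobase, followed by CALR at 10271, HSP90B1 at 9580, CANX at 7528 and PDIA4 at 7395. In SW480-45 HSPA5 was at 11346, still first, with CALR at 9991 and HSP90B1 at 8062. ERN1 was at 66.4 normalized counts per kilobase in SW480-NC and XBP1 at 3077. The matched paralogs of a family differed in level. ERO1A was at 555 and ERO1B at 2.40, and DERL1 was at 1079 and DERL3 at 30.1 normalized counts per kilobase in SW480-NC.

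Promoter windows of 250 bases before to 50 after the start were found for 27 of the 31 genes. Exact ERSE letters, on either strand, were in the windows of 8 of them, HSPA5, HSP90B1, PDIA6, ERO1B, CRELD2, CALR, CANX and XBP1, and in 0.0769% of all 35116 windows. The element was first defined on genes of this kind, so its share here is no independent result. The log2 fold changes of these 8 genes ran from −0.51 to −0.04 with a median of −0.29, all below 0, and 1 of them, HSPA5, passed the adjusted threshold. The lowest values of this range are the least firm, since ERO1B (−0.50) rests on 6 to 15 reads per library, CANX (−0.51) is −0.21 without SW480-45 replicate 1 and XBP1 (−0.39) is −0.18 without SW480-NC replicate 2. The difference between genes with and without these exact letters was not tested. A gene without an exact match in this window is not shown to lack the element. The ERSE-II letters, found in 0.0541% of all windows, were in HYOU1, SDF2L1 and HERPUD1, whose log2 fold changes ran from −0.03 to 0.17. The other 16 genes with a window had a median of −0.08, from −0.37 to 0.67, and 11 of them were also below 0. The UPRE letters TGACGTGG, in 0.729% of all windows, were in HYOU1, and the CARE letters, in 3.62%, were in HERPUD1. The letters CCACG are shared by ERSE, ERSE-II and the reverse of the UPRE. A match in these letters is a description of the window and does not show that a factor was bound.

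Genes outside the list gave the setting for these values. For other steps of ER folding and quality control, 60 genes were listed and 48 tested. Among these 48, 0 passed the adjusted threshold in limma and in edgeR and 3 in DESeq2. At an unadjusted p under 0.05, 6 were lower and 7 higher (12.5% and 14.6%), beside 8.15% and 8.1% of all features tested. The median log2 fold change of these genes was −0.03. SIL1, the other nucleotide exchange factor of BiP, was singled out here after its values were seen, with 2037, 2162 and 2256 normalized counts in SW480-45 and 726, 1122 and 1589 in SW480-NC. Its libraries did not overlap, and its log2 fold change of 0.98 ± 0.25 (SE, unadjusted p = 0.00477) had a limma adjusted p = 0.132. The 32 tested genes of the ATF4 and amino acid stress response, from 36 listed, were mostly above 0, 27 of them against 5 below. Of these, 4 rose and 1 fell past the adjusted threshold, where 0.332% and 0.47% of all features tested did. At an unadjusted p under 0.05, 18 were higher and 1 was lower (56.2% and 3.12%), where 8.1% and 8.15% of all features tested were. Among the abundant features 8.22% were higher and 13% lower at this p. The median log2 fold change of the list was 0.28. The list was chosen with earlier results of these data known, so its rise is no independent result. ASNS had 10919, 10506 and 11429 normalized counts in SW480-45 and 6550, 6755 and 7459 in SW480-NC, and rose by 0.66 ± 0.07 (SE, limma adjusted p = 0.0132). DDIT4, an inhibitor of mTORC1, rose by 1.08, the stress factor NUPR1 by 1.14 and PSAT1, of serine synthesis, by 0.43 (limma adjusted p = 0.00577, 0.0184 and 0.0243). Against these, ATF5, itself a factor of this response, fell by 0.66 (limma adjusted p = 0.0475). With single libraries left out, DDIT4 passed in all 6 fits, ASNS in 3, NUPR1 in 2, PSAT1 in 1 and ATF5 in 0. Without an intensity trend 0 of the 5 passed in limma, with adjusted p from 0.0704 for DDIT4 to 0.153 for ATF5, and ATF5 also missed the threshold in edgeR (adjusted p = 0.0520).

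Of 5 further ATF4-linked genes, ATF4, DDIT3, TRIB3, PPP1R15A and CHAC1, 0 passed the adjusted threshold in limma or edgeR and 3 had an unadjusted p under 0.05. Such an unadjusted p was found for 16.2% of all features tested, and these 5 genes belong to the same list. In DESeq2 ATF4 and TRIB3 passed it (adjusted p = 0.0118 and 0.0127). ATF4 had 19473, 18899 and 18435 normalized counts in SW480-45 and 14797, 12745 and 15470 in SW480-NC, without overlap (log2 fold change 0.41 ± 0.08 SE, limma adjusted p = 0.0803). DDIT3 (CHOP), a death-linked factor listed here with the ATF4 genes, had 713, 678 and 692 in SW480-45 and 550, 649 and 610 in SW480-NC. The DDIT3 libraries did not overlap either (log2 fold change 0.21, limma adjusted p = 0.349). TRIB3 had a log2 fold change of 0.60, PPP1R15A, the phosphatase subunit that ends the response, 0.28, and CHAC1 0.08 (limma adjusted p = 0.145, 0.300 and 0.960). PPP1R15A was at 0.18 without SW480-NC replicate 2.

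Chaperones outside the ER were mostly below 0, 13 of the 16 matched from a list of 22. HSPA1A, HSPA1B, HSPB1, HSPE1, TRAP1 and TCP1 were not matched. Of these 16 tested genes of cytosolic and mitochondrial chaperones, 2 fell past the adjusted threshold in limma, where 0.47% of all features tested did. At an unadjusted p under 0.05, 5 were lower (31.2%) and 0 higher, beside 8.15% lower among all features and 13% among the abundant ones. The libraries did not overlap for 8 of the 16 (50%), each lower in SW480-45, beside 35.5% of the ER genes and 17.7% of the abundant features. The median log2 fold change was −0.10, the same to this precision as over the ER genes. HSP90AA1, the inducible cytosolic Hsp90, fell by 0.29 and HSPH1 (Hsp110), a nucleotide exchange factor of cytosolic Hsp70, by 0.36 (limma adjusted p = 0.0435 and 0.0475), though neither passed in edgeR or with any library left out.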

How the data were processed

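RNA of 3 SW480-45 and 3 SW480-NC libraries was sequenced by the authors on an Illumina instrument after NEBNext Ultra preparation. The submitters' processing notes name bcl2fastq, HISAT2, DESeq2 and the build GRCh38, and the paper names Cuffdiff for its own test. The transcript assembler behind 33265 of the features, the counting tool and the use of strand are not given in the sources used here. What the authors deposited is a signal for each feature, made from gene counts by dividing with 1 size factor per library. Dividing by the smallest value of each library gave whole reads for 100% of the values (tolerance 0.01 read), and each library then held 33221323 to 39802365 reads, which sets the counting precision. Replicates differed by more than sampling noise, with a chi-square per feature of 21.7 to 26.6.

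SW480-45 was compared with SW480-NC with limma 3.58.1 (R 4.3.3), fitted to log2 of the normalized count plus 1 and moderated with an intensity trend, for features averaging 10 or more, with Benjamini-Hochberg adjustment over all 21703. Fold changes on this scale understate those of low genes. An adjusted p under 0.05 is called past the threshold. Although whole reads could be recovered, limma was kept as the main test as designed, and edgeR 4.0.16 (quasi-likelihood) and DESeq2 1.42.0 on these reads were alternatives, beside another pseudocount (5), other filters (none, or a mean of at least 50), quantile and TMM normalization, no intensity trend, Ensembl features only, the replicate number as a block and each library left out. The steps were tested on simulated data with planted changes larger than those of the ER genes here, so this check does not bear on differences of their size. Symbols came from the Ensembl identifiers, found for 25595 of 25927. Exon lengths and overlaps came from GENCODE 29, promoter windows from RefSeq (GRCh38.p14), and figures from matplotlib 3.10.9 in Python 3.11.15.

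The genes and lists were chosen with earlier results of these data known, and the background of abundant features (a mean of at least 400), CANX and CALR were chosen after their values were seen. Values in every library are given for genes with an unadjusted p under 0.05 and for HSPA5, HSP90B1, DNAJB9, HERPUD1, SDF2L1, XBP1 and ERN1. They are also given for CALR, CANX and WFS1, and the others are described mostly by their fold change. Of the other lists, genes past the adjusted threshold and DDIT3, ATF4, TRIB3, ASNS, CHAC1 and PPP1R15A are named. No test was made over a list.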

Additional observations from a re-analysis of the deposited data

How the results depend on the processing

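The direction of HSPA5 held in all 16 alternatives, with a log2 fold change from −0.36 to −0.31, while its adjusted p ranged from 0.00713 to 0.196 and missed the threshold in 8 of them (0.185 with the replicate block). The count of ER genes past the adjusted threshold, 1 in the main test, was accordingly 0 without a filter on low values, 0 without an intensity trend, 0 with the replicate number as a block, and 0 to 2 with single libraries left out, 2 without SW480-NC replicate 3 (HSPA5 and EDEM3). The count at an unadjusted p under 0.05, 9, ranged from 5 to 11 with single libraries left out, 5 without SW480-NC replicate 2. The median log2 fold change of the list was −0.078 under quantile normalization and −0.11 to −0.074 with single libraries left out, smallest in size without SW480-45 replicate 1. The 7 calls in the other lists became 0 without an intensity trend, 0 with the replicate block, 1 to 5 with single libraries left out, 4 in edgeR and 19 in DESeq2. Among them, the 5 ATF4 and amino acid stress calls became 0 without a trend, 0 with the replicate block (adjusted p = 0.0519 for DDIT4 in limma), 1 to 4 with libraries left out and 14 in DESeq2. The 2 cytosolic chaperone calls became 1 with a pseudocount of 5, 1 under quantile normalization, 1 under TMM scaling, 0 without a filter, without a trend, with the replicate block, in edgeR and in each fit with a library left out. The other ER folding genes, 0 in the main test, gave 1 without a filter, 3 in DESeq2 and 0 to 1 with libraries left out. HPSE passed the threshold without a filter (−0.83, adjusted p = 0.0451 from limma), with a mean of at least 50 (−0.83, adjusted p = 0.0460 from limma), over Ensembl features only (−0.83, adjusted p = 0.0462 from limma) and in DESeq2 (−0.83, adjusted p = 0.000948). SDF2L1 changed sign with single libraries left out (−0.19 to 0.12), and CHAC1 under quantile normalization (−0.0030) and with libraries left out (−0.49 to 0.37). The cause of these changes was not tested. Over all features, 174 calls became 11 without a trend, 12 with the replicate block, 36 to 104 with libraries left out and 756 in DESeq2. No pairing of the libraries by replicate number was seen. The deviations of same-numbered libraries from their group means correlated at 0.0025, −0.020 and 0.0074, and not every library correlated best with its own number. A shared effect of same-numbered libraries on a smaller set of genes was not tested. Depth limits ERO1B and DERL3 most, and 9 listed genes were not analysed here.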

Other observations

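WFS1 and CHAC1 shared an uneven pattern within both lines. WFS1 had 1733 normalized counts in SW480-45 replicate 2 and 1375 in SW480-NC replicate 2, against 381 to 933 in the other 4 libraries. CHAC1, a glutathione-degrading enzyme induced by ATF4, had 350 in SW480-45 replicate 2 and 221 in SW480-NC replicate 2, against 92.0 to 172 in the others. Both genes were singled out after their values were seen, and the replicate numbers are not known to mark a shared culture.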
